A study of Mus musculus with 16 samples.

Results

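The 9 T cell receptor signalling genes Cd3d, Cd3e, Cd3g, Cd247, Zap70, Lck, Lat, Skap1 and Cd28 were followed by RNA-seq in mouse bone marrow-derived dendritic cells (BMDCs). All 9 were present by name among the 23356 genes of the deposited table. They were chosen from their FPKM in these same 8 conditions, so the size and direction of their differences are a description and were not tested. Tmem173 encodes STING, the sensor that binds cyclic dinucleotides such as c-di-GMP, a bacterial second messenger. IRF1, IRF3 and IRF7 are transcription factors of the interferon regulatory factor family.

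BMDCs were grown from the marrow of sex-matched young adult mice of 4 genotypes, wild-type, Tmem173-/-, Irf1-/- and Irf3/7-/-, the last lacking both Irf3 and Irf7. Marrow was cultured with GM-CSF and IL-4 for 6 days, and the floating and loosely attached cells were taken, which is a mixed harvest with no sort described for it. Each genotype was left untreated or given c-di-GMP at 25 µg/ml for 18 h, which made 8 conditions with 2 samples each. The deposited values hold 1 pooled FPKM (fragments mapped to a gene, scaled to transcript length and to the mapped total) for each gene and condition, with a confidence interval computed by the authors' software. With no value per sample, no replicate error could be computed and no test was made. A gene was called higher or lower where the log2 difference of FPKM + 0.1 was above 1 or below -1, the authors' intervals did not overlap, both values were marked as usable and at least 1 condition of the pair reached 1 FPKM.

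The T cell receptor has no signalling domain of its own. It is carried by the CD3 gamma, delta and epsilon chains and by CD3 zeta, encoded by Cd247, whose tails are phosphorylated by the kinase LCK after the receptor meets peptide on MHC. Phosphorylated tails recruit the kinase ZAP70, which phosphorylates the membrane scaffold LAT. SKAP1 is an adaptor that links the receptor to integrin adhesion, and CD28 is the receptor for CD80 and CD86 on dendritic cells. Dendritic cells are the partner cell in this exchange, and the CD3 chains are used as defining markers of T cells. In bulk RNA, fewer cells of a type and less RNA per cell cannot be told apart, so every level below is a level in the whole harvest.

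Promoter sequences are shown for the 3 CD3 chains, which lie side by side on chromosome 9, and for Lck and Lat, which departed most from them. Coordinates are those of GRCm38.p6 and the sequences are from RefSeq, 250 bases before to 50 bases after a start of transcription, read 5′ to 3′ on the gene's strand. Capitals mark AGGAAG (ETS core) or TGTGGT (RUNX core) or the reverse complement of either.
Cd3g, chr9:44980382-44980681, minus strand: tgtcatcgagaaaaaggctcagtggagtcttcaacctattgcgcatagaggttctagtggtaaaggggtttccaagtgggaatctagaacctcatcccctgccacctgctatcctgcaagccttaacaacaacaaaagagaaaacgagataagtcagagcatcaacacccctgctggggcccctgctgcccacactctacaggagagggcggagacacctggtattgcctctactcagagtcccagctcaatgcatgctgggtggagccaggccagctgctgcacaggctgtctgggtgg
Cd3d, chr9:44981536-44981835, plus strand: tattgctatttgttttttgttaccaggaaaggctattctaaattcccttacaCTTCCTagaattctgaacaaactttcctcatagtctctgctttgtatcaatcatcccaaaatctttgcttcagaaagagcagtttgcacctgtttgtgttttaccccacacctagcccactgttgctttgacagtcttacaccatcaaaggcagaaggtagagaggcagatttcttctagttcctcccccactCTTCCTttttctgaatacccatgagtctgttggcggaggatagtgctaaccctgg
Cd3e, chr9:45009562-45009861, minus strand: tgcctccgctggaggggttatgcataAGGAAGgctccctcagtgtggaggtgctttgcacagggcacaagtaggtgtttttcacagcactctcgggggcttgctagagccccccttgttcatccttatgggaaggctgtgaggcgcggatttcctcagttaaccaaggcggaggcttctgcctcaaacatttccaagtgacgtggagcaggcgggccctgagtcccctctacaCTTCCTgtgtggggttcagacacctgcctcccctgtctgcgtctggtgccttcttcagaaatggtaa
Lck, upstream start, chr4:129573592-129573891, minus strand: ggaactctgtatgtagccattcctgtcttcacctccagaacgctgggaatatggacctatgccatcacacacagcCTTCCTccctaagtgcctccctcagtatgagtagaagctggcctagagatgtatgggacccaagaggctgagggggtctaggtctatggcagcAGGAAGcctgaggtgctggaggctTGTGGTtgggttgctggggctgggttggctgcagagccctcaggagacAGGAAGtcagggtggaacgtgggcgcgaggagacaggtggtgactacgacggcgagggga
Lat, chr7:126369519-126369818, minus strand: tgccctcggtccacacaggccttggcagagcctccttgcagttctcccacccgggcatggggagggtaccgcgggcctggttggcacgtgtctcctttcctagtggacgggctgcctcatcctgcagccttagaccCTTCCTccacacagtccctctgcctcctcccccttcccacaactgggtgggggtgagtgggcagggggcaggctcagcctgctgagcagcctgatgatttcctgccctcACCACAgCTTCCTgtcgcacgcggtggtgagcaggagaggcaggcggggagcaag

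Of the 9 members, 7 had an entry in the promoter table, with 10 start sites in all. Skap1 and Cd28 were not matched. AGGAAG was present in 8 of the 10 windows, from 6 of the 7 genes, against 35.4% of the 32851 windows of all genes. TGTGGT was present in 3 of the 10, 1 each of Zap70, Lck and Lat, against 16.8%. The core of the interferon response element was present in 0 of the 10 windows, against 3.44% of all windows. The Cd3g window held no match to any of the 3. Both strands were searched, a match in letters is not a binding site, and no match says only that these letters are absent from this window.

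The loci of the deposited table lay on the coordinates of GRCm38, with 99% of 21681 loci overlapping the gene of the same name there. Cd3g (chr9:44969572-44980431, minus strand) and Cd3d (chr9:44981786-44987052, plus strand) are neighbours with their starts facing away from each other and 1354 bases between them. Cd3e (chr9:44998743-45009590, minus strand) lies 11690 bases beyond the end of Cd3d. The other members were at Cd247 (chr1:165788681-166002634), Zap70 (chr1:36761861-36782816), Cd28 (chr1:60746388-60773359), Lck (chr4:129548344-129573641), Lat (chr7:126363828-126369534) and Skap1 (chr11:96464591-96759622). All are protein-coding genes and the FPKM refers to their exons. The Cd247 locus of the table ran into that of Pou2f1, which stood at 2.19 to 3.38 FPKM over the 8 conditions, which makes its level less certain than those of the others.

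All 9 genes had the same broad order of levels. Each was highest in c-di-GMP-treated Irf3/7-/- BMDCs, and each had all 4 values of the wild-type and Irf3/7-/- conditions above all 4 values of the Tmem173-/- and Irf1-/- conditions. The authors' intervals kept these sets apart for 6 genes, Cd3d, Cd3e, Cd3g, Zap70, Skap1 and Cd28, and met for Cd247, Lck and Lat. Summed over the members, the level was 68.8 FPKM in untreated and 50.6 FPKM in treated wild-type BMDCs, 91.8 and 164.5 in Irf3/7-/-, 8.58 and 14.7 in Irf1-/-, and 5.07 and 4.39 in Tmem173-/-.

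**Figure D1:**
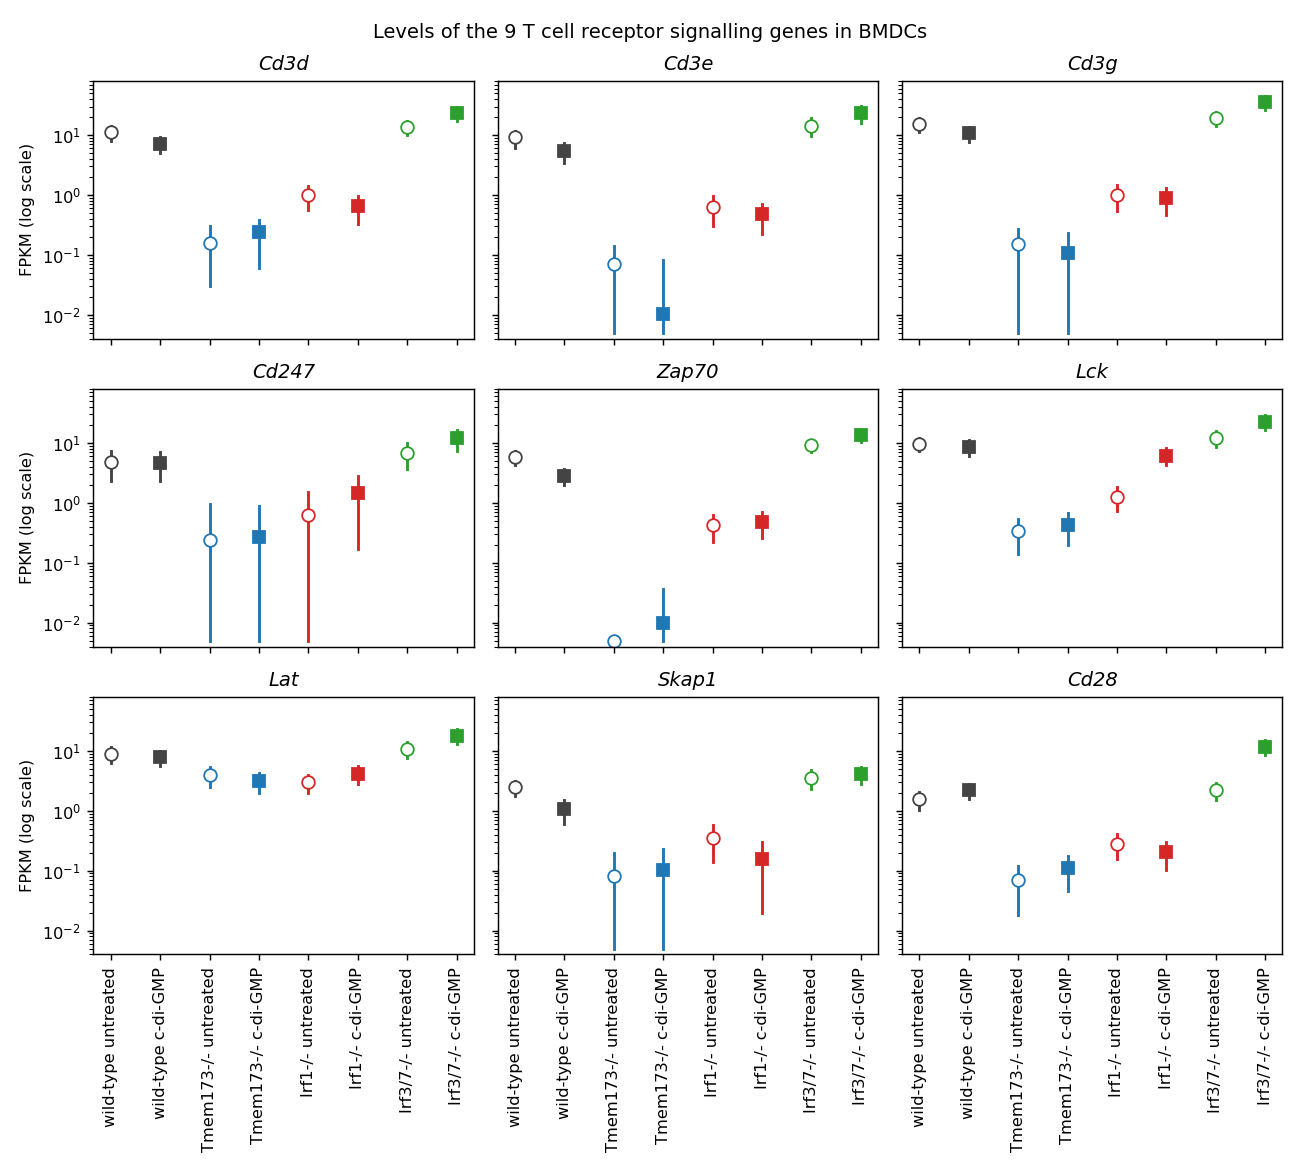
FPKM (log axis) of each of the 9 genes in the 8 conditions, with open circles for untreated and filled squares for c-di-GMP-treated BMDCs and lines for the authors' confidence intervals. Zap70 in untreated Tmem173-/- BMDCs is listed at 0 and is drawn at the bottom edge, as are interval ends at 0, and Lat is the 1 gene that stays above 1 FPKM in all 8 conditions.

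The 3 CD3 chains had like profiles. Cd3g, the gamma chain, stood at 15.3 FPKM in untreated and 10.7 FPKM in treated wild-type BMDCs, at 19.2 and 35.4 in Irf3/7-/-, at 1.01 and 0.903 in Irf1-/-, and at 0.152 and 0.106 in Tmem173-/-. Cd3d, the delta chain, was 11.1 and 7.18 FPKM in wild-type, 13.7 and 23.7 in Irf3/7-/-, 0.993 and 0.645 in Irf1-/-, and 0.157 and 0.238 in Tmem173-/- BMDCs. Cd3e, the epsilon chain, was 9.18 and 5.41 FPKM in wild-type, 14.3 and 23.3 in Irf3/7-/-, 0.641 and 0.479 in Irf1-/-, and 0.0701 and 0.0103 in Tmem173-/- BMDCs. The intervals of the Tmem173-/- conditions reached 0 for Cd3e and Cd3g, and no CD3 chain had its Tmem173-/- or Irf1-/- intervals in reach of a wild-type one. Neighbours in the order of levels often could not be separated, since treated and untreated intervals overlapped for all 3 chains in wild-type, in Tmem173-/- and in Irf1-/- BMDCs. In Irf3/7-/- BMDCs they did not overlap for Cd3d and Cd3g.

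The ratios between the chains were compared where all were well expressed. Relative to Cd3g in the same condition, on the per-length FPKM scale, Cd3d stood at 72.6% and 67% in untreated and treated wild-type BMDCs and at 71.6% and 67% in Irf3/7-/- BMDCs. Cd3e varied more, at 60.1% and 50.5% in wild-type and 74.8% and 66% in Irf3/7-/- BMDCs, as did Cd247, at 31.3% and 43.6% and at 35.2% and 33.8%. Cd247, the zeta chain, was 4.78 and 4.67 FPKM in wild-type, 6.75 and 12.0 in Irf3/7-/-, 0.617 and 1.46 in Irf1-/-, and 0.236 and 0.271 in Tmem173-/- BMDCs. It followed the other chains, but every one of its intervals overlapped that of its neighbour in the order of levels.

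The kinases came next. Zap70 was 5.80 and 2.80 FPKM in wild-type BMDCs, 9.20 and 13.8 in Irf3/7-/- and 0.431 and 0.475 in Irf1-/-. In Tmem173-/- BMDCs it was listed at 0 untreated and at 0.00981 FPKM treated. It was the 1 member with an entry of exactly 0. An exact 0 in such a table can also be a failed estimate, though this entry was marked as usable. Lck, the kinase upstream of it, was 9.69 and 8.62 FPKM in wild-type, 12.0 and 22.6 in Irf3/7-/-, 1.26 and 6.16 in Irf1-/-, and 0.342 and 0.429 in Tmem173-/- BMDCs. Treated Irf1-/- BMDCs were the exception for Lck, with an interval of 4.23 to 8.13 FPKM that overlapped the 6.12 to 11.1 FPKM of treated wild-type BMDCs and stood clear of the 0.731 to 1.81 FPKM of untreated Irf1-/- BMDCs. Relative to Cd3g, Lck went from 63.4% in untreated wild-type to 125% in untreated and 683% in treated Irf1-/- BMDCs. Cd3g was low in these 2 Irf1-/- conditions, at 1.01 and 0.903 FPKM, with intervals of 0.544 to 1.48 and 0.466 to 1.32. Lck was also high relative to Cd3g in Tmem173-/- BMDCs, at 225% untreated and 406% treated, where both genes were under 1 FPKM.

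Among the adaptors, Lat and Skap1 differed in how low they went. Lat was 8.87 and 7.93 FPKM in wild-type, 10.8 and 17.9 in Irf3/7-/-, 2.99 and 4.18 in Irf1-/-, and 3.96 and 3.11 in Tmem173-/- BMDCs. Its highest value was 6-fold its lowest, against 50.6-fold or more for the other 7 genes with no value of 0. Skap1 was 2.47 and 1.06 FPKM in wild-type, 3.51 and 4.11 in Irf3/7-/-, 0.351 and 0.157 in Irf1-/-, and 0.0813 and 0.101 in Tmem173-/- BMDCs. Skap1 stood just above 1 FPKM in treated wild-type BMDCs and far under it in Tmem173-/- and Irf1-/- BMDCs.

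Cd28 behaved differently after treatment. It was 1.58 and 2.21 FPKM in wild-type, 2.21 and 11.8 in Irf3/7-/-, 0.284 and 0.201 in Irf1-/-, and 0.0696 and 0.110 in Tmem173-/- BMDCs. Its interval in treated Irf3/7-/- BMDCs, 8.45 to 15.1 FPKM, overlapped none of the other 7. Relative to Cd3g, Cd28 stood at 10.3% before and 20.6% after treatment in wild-type BMDCs and at 11.5% and 33.3% in Irf3/7-/- BMDCs.

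In the untreated state, the question was how much each genotype differed before c-di-GMP was given. All 9 members were called lower in Tmem173-/- than in wild-type BMDCs, where 5.95% of the 11101 genes tested were called lower and 5.04% higher. The log2 difference, over the 8 members above 0 in both, ran from -5.93 for Cd3g to -1.14 for Lat, with a median of -4.16. All 9 were also called lower in untreated Irf1-/- BMDCs, where 3.52% of 11017 genes were called lower and 1.26% higher, with log2 differences from -3.79 for Cd3g to -1.54 for Lat and a median of -2.84. In untreated Irf3/7-/- BMDCs no member was called, the log2 differences were 0.28 to 0.66 and all above 0, and 1.17% and 0.863% of 11004 genes were called higher and lower. The median over all 23356 genes was 0.00 in each of these comparisons, and the members were chosen on these differences, so the counts describe the choice. The 3 comparisons share the untreated wild-type column.

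The same comparisons were then made between the c-di-GMP-treated conditions. Against treated wild-type BMDCs, all 9 members were called lower in Tmem173-/- BMDCs given c-di-GMP, beside 13.5% of 11318 genes lower and 12.9% higher, with log2 differences from -5.72 for Cd3g to -1.32 for Lat and a median of -4.04. Of the 9, 6 were called lower in treated Irf1-/- BMDCs, against 4.91% of 11079 genes lower and 2.65% higher, and the median of the 9 was -2.33. The 3 not called were Cd247 (log2 difference -1.61), Lck (-0.48) and Lat (-0.91). For Cd247 the intervals overlapped, and for Lck and Lat the fold was also under 2. All 9 were called higher in treated Irf3/7-/- BMDCs, against 4.61% of 11209 genes higher and 2.69% lower, with log2 differences from 1.17 for Lat to 2.36 for Cd28 and a median of 1.71. These 3 comparisons share the treated wild-type column, and the counts again describe genes chosen on these values.

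**Figure D2:**
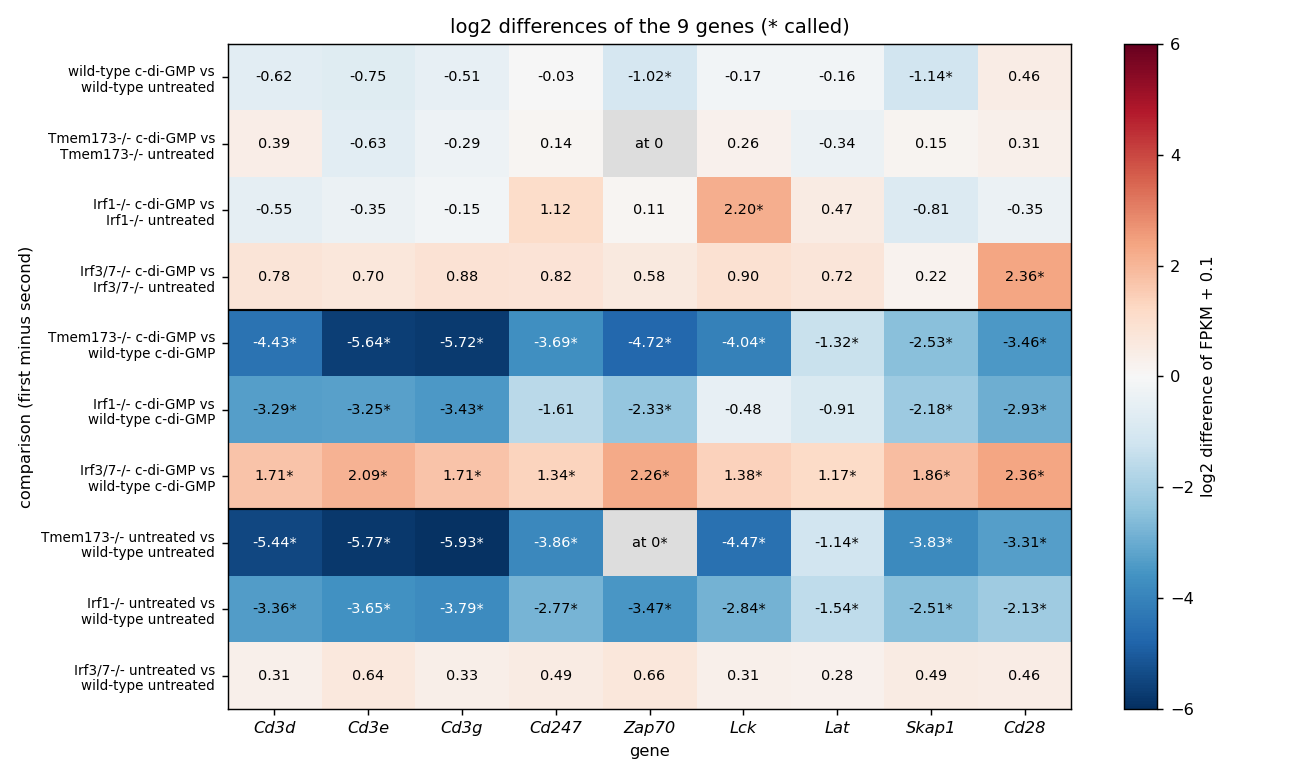
Log2 difference of FPKM + 0.1 for each of the 9 genes (columns) in the 10 comparisons (rows, first condition minus second), in red where the first is higher, with an asterisk for a call and grey cells marked "at 0" where Zap70 was listed at 0. The rows against wild-type are called lower throughout for Tmem173-/- and for untreated Irf1-/-, and called higher throughout for treated Irf3/7-/-.

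Treated and untreated BMDCs of the same genotype were compared next. With 9 genes, the counts called within a genotype are too small to set apart from the shares of all tested genes. In wild-type BMDCs, Zap70 (log2 difference -1.02) and Skap1 (-1.14) were called lower after c-di-GMP, which is 2 of 9 members where 9.96% of 11201 genes were called lower and 10.5% higher. Both calls stood close to the limit of 1, and each was lost under some of the other settings tried. The CD3 chains were not called, with log2 differences of -0.62 for Cd3d, -0.75 for Cd3e and -0.51 for Cd3g. In Tmem173-/- BMDCs no member was called, Lat alone reached 1 FPKM and was tested, and 0.046% of 10867 genes were called higher and 0.0092% lower.

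Irf1-/- and Irf3/7-/- BMDCs each had 1 member called after treatment. In Irf1-/- BMDCs it was Lck, higher by 2.20 on the log2 scale, where 9.67% of 11164 genes were called higher and 7.81% lower. Only 4 of the 9 members reached 1 FPKM there and were tested, Cd3g, Cd247, Lck and Lat. Cd247 had a log2 difference of 1.12 with overlapping intervals, and the CD3 chains had -0.55, -0.35 and -0.15 for Cd3d, Cd3e and Cd3g. In Irf3/7-/- BMDCs the member called was Cd28, higher by 2.36 on the log2 scale, where 10.2% of 11283 genes were called higher and 7.68% lower. The other 8 members had log2 differences of 0.22 to 0.90 there and were not called. The calls of Lck and Cd28 were made under all 6 other settings tried. Whether the response to c-di-GMP differed between genotypes was not tested, since no condition has a replicate value.

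The genes targeted by the knockouts were checked against the labels. Tmem173 was 103 and 118 FPKM in wild-type and 8.97 and 7.49 in Tmem173-/- BMDCs. Irf1 was 149 and 245 FPKM in wild-type and 25.9 and 116 in Irf1-/- BMDCs, so fragments were still assigned to the Irf1 gene there, and it was 24.1 and 23.3 in Tmem173-/- BMDCs. Irf7 was 15.2 and 687 FPKM in wild-type and 1.07 and 4.97 in Irf3/7-/- BMDCs, while Irf3 was 19.9 and 15.8 in wild-type and 7.74 and 20.2 in Irf3/7-/- BMDCs. Each targeted gene was called lower in its own knockout, treated Irf1-/- BMDCs included (log2 difference -1.08), except Irf3 in treated Irf3/7-/- BMDCs (0.35). A gene-level FPKM outside the deleted part does not check a deletion.

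Dendritic cells use close relatives of these genes in other receptors, and those relatives were read from a list of 14 myeloid counterparts. Syk, the relative of ZAP70, stood at 59.4 to 93.8 FPKM over the 8 conditions, a 1.58-fold range. Lyn, a Src family kinase like LCK, ranged 1.57-fold, from 39.4 to 61.8 FPKM, and Skap2 ranged 1.53-fold, from 95.4 to 146.3 FPKM. Fcer1g, the signalling chain of Fc receptors, stood at 419.2 to 1044.9 FPKM and Lat2, a scaffold like LAT, at 23.3 to 84.1 FPKM. Zap70 thus reached at most 13.8 FPKM where Syk never fell under 59.4 FPKM. In untreated Irf1-/- BMDCs, where all 9 members were called lower, 13 of the 14 counterparts were tested and 0 called, with a median log2 difference of 0.02. Of all tested genes 3.52% were called lower and 1.26% higher there, so a count of 0 in so short a list is near these shares. In untreated Tmem173-/- BMDCs 5 were called higher, among them Fcer1g, Tyrobp, Lat2 and Fgr, and 0 lower, beside 5.04% and 5.95% of all tested genes.

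**Figure D3:**
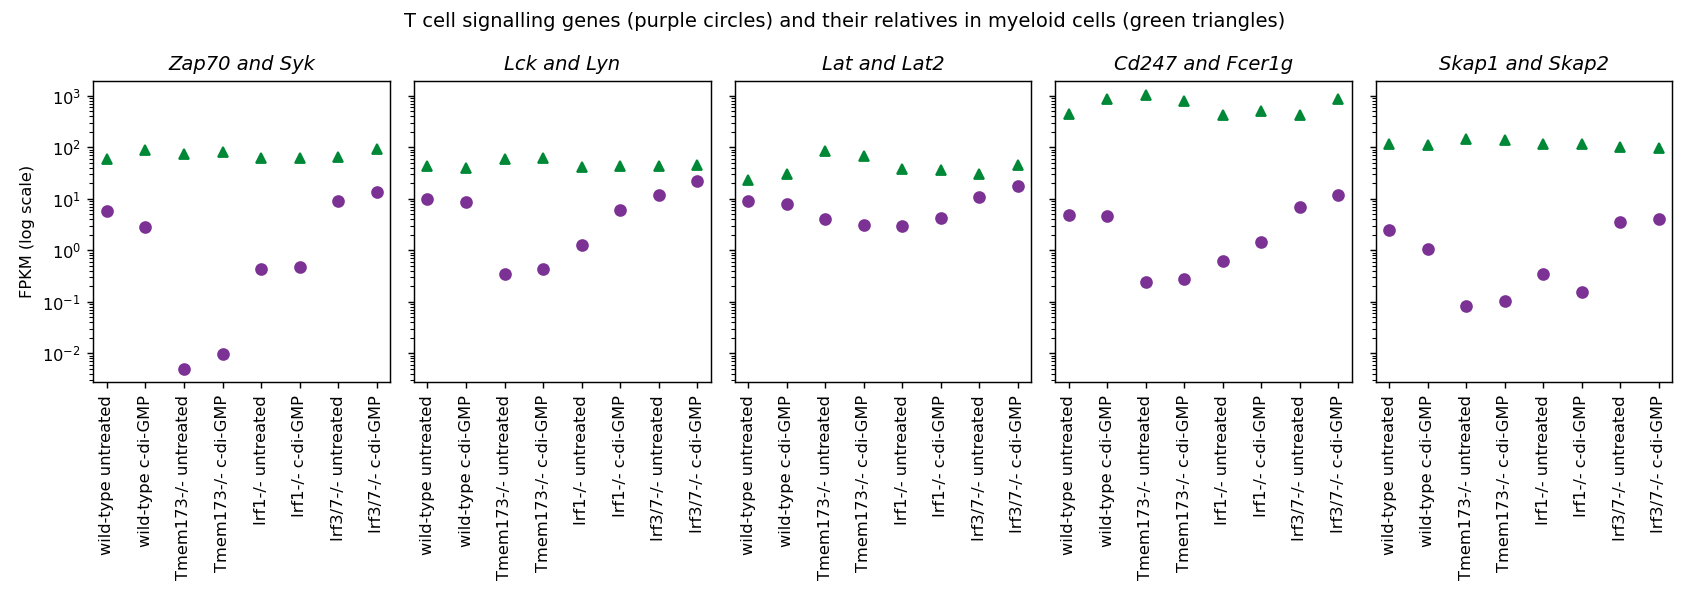
FPKM (log axis) of 5 of the 9 genes (purple circles) beside a relative used by myeloid cells (green triangles) in the 8 conditions. The relatives stay between 23.3 and 1044.9 FPKM in every condition, while the T cell genes have lower values in Tmem173-/- and Irf1-/- than in wild-type BMDCs, with Cd247, Lck and Lat not called in treated Irf1-/- BMDCs. The Zap70 value of 0 is drawn at the bottom of the points.

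CD80 and CD86, the ligands of CD28, are made by the dendritic cells themselves. With c-di-GMP, Cd80 was called higher in wild-type BMDCs, from 55.6 to 207.2 FPKM, as was Cd86, from 71.7 to 255.1 FPKM. In Irf3/7-/- BMDCs, where Cd28 was called higher too, Cd80 went from 37.9 to 122.5 FPKM and Cd86 from 66.2 to 209.6 FPKM, both called. In Irf1-/- BMDCs both ligands were called higher, Cd80 to 196.7 and Cd86 to 247.5 FPKM, while Cd28 was at 0.201 FPKM. The ligands and their receptor therefore had different patterns over the genotypes.

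The rest of the T cell receptor pathway was read from a list of 39 other genes. In untreated Tmem173-/- BMDCs 12 of the 34 tested were called lower and 0 higher, beside 5.95% and 5.04% of all tested genes. In untreated Irf1-/- BMDCs 12 of 34 were called lower and 0 higher, beside 3.52% and 1.26%. The medians over the list were -0.53 and -0.48. In treated Tmem173-/- BMDCs 10 of the 32 tested were called lower and 3 higher, beside 13.5% and 12.9% of all tested genes. The 3 higher are near their share. In treated Irf1-/- BMDCs 11 of 31 were called lower and 0 higher, beside 4.91% and 2.65%. In treated Irf3/7-/- BMDCs 18 of 37 were called higher and 0 lower, beside 4.61% and 2.69%, with a median of 0.84. In untreated Irf3/7-/- BMDCs Txk, a Tec family kinase, was the 1 of 35 called, as higher, beside 1.17% of all tested genes. The list also holds genes that most leukocytes use. Of the 39, 9 stayed within a 2-fold range over all 8 conditions, at 13.9 to 117.9 FPKM, among them Csk, Grb2, Lcp2 (SLP-76), Vav1 and Bcl10.

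The 2 coreceptors differed. Cd8a, the alpha chain of the CD8 coreceptor, was 21.8 and 16.5 FPKM in wild-type, 33.2 and 60.8 in Irf3/7-/-, 1.70 and 1.40 in Irf1-/-, and 0.497 and 0.414 in Tmem173-/- BMDCs. Cd8b1, the beta chain, went from 6.27 FPKM in untreated wild-type to 0.0284 in untreated Tmem173-/- and 0.521 in untreated Irf1-/- BMDCs. Cd4, the other coreceptor, was at 0.0737 to 0.154 FPKM throughout. Trat1, an adaptor that binds the receptor, was 15.2 FPKM in untreated wild-type, listed at 0 in untreated Tmem173-/- and 26.7 FPKM in treated Irf3/7-/- BMDCs. Of 11 symbols for the receptor chains themselves, 1 was in the table, Ptcra, at 0.155 to 0.292 FPKM, and the other chains were not analysed here.

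Ctla4 and Icos, which lie beside Cd28 on chromosome 1 and encode related receptors, were on the same list. Ctla4 was 0.677 and 3.30 FPKM in wild-type, 0.455 and 17.5 in Irf3/7-/-, 0.0689 and 0.0764 in Irf1-/-, and listed at 0 and then 0.0180 in Tmem173-/- BMDCs. Icos was 1.53 and 1.33 FPKM in wild-type and 1.38 and 4.35 in Irf3/7-/- BMDCs. All 3 genes of this stretch (Cd28, Ctla4 at chr1:60909025-60915830 and Icos at chr1:60977914-61000321) were called higher by c-di-GMP in Irf3/7-/- BMDCs, and Ctla4 alone was called in wild-type BMDCs. Pdcd1 (PD-1) and Themis were called higher by c-di-GMP in Irf3/7-/- BMDCs as well, at 2.80 and 3.05 FPKM after treatment.

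**Figure D4:**
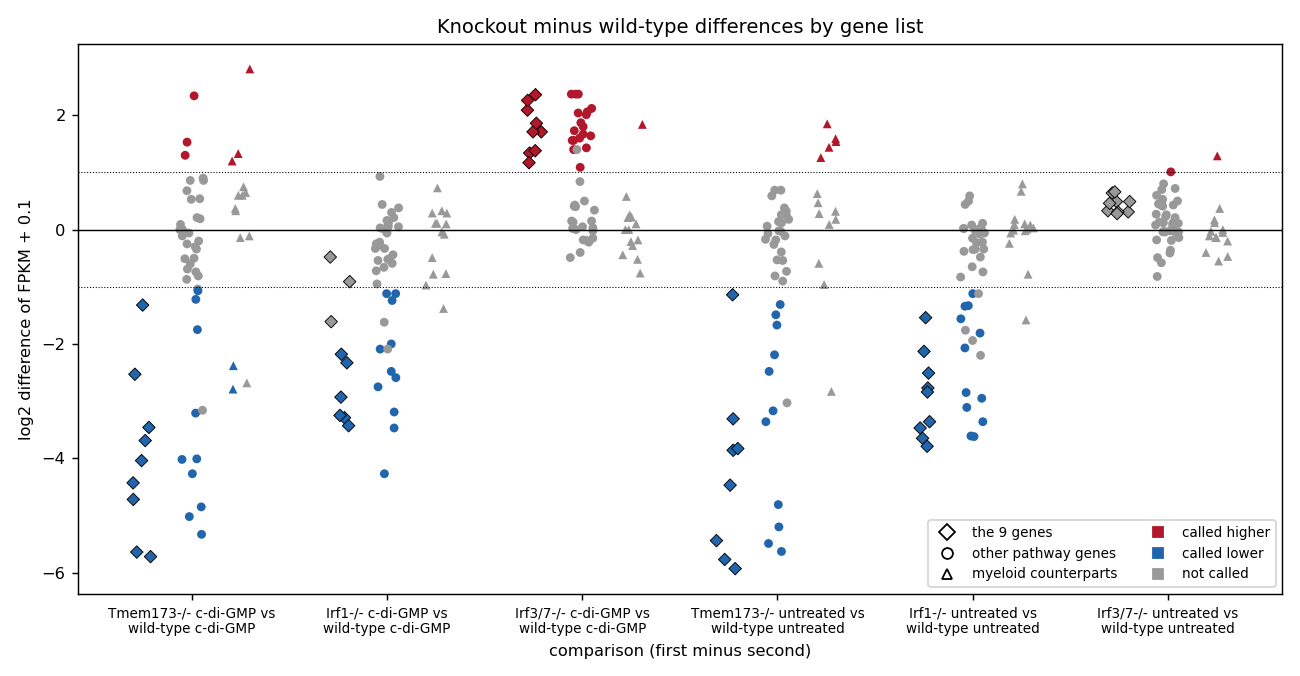
Log2 difference of FPKM + 0.1, knockout minus wild-type, for the 9 genes (diamonds), the other T cell receptor pathway genes (circles) and the myeloid counterparts (triangles), coloured by call, with dotted lines at 1 and -1. Genes listed at 0 in either condition are left out. The 9 genes lie below 0 in all Tmem173-/- and Irf1-/- comparisons and above 0 in both Irf3/7-/- comparisons.

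Over the 8 conditions, each member's log2 level had a Pearson r of 0.932 (Lck) to 0.996 (Cd3g) with the mean of the other 8, as a description over points that are pooled values of 4 genotypes. Of 11811 other genes, the 10 most like the mean of the 9 included Tspan9, Gimap7, Cd8a, Epas1, Ctsw, Cd96, Cd8b1, Cd27 and Podnl1, with r from 0.998 to 0.990. Cathepsin W, encoded by Ctsw and known from CD8 T cells and NK cells, went from 14.9 FPKM in untreated wild-type to 0.0300 in untreated Tmem173-/- BMDCs. Tspan9, a tetraspanin, headed the list at 5.52 FPKM in untreated wild-type and 0.150 in untreated Tmem173-/- BMDCs.

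Genes of an NK cell list, some of them also expressed by cytotoxic T cells, moved with the members in several comparisons. Of 21 NK cell genes, 16 were tested in untreated Tmem173-/- BMDCs. There 13 were called lower and 2 higher, beside 5.95% and 5.04% of all tested genes. Sh2d1b1, 1 of the 2, stood at 39.05 FPKM there and 8.55 in wild-type. In untreated Irf1-/- BMDCs 13 of 16 were called lower and 0 higher, beside 3.52% and 1.26%. In treated Irf3/7-/- BMDCs 14 of 17 were called higher and 1 lower, beside 4.61% and 2.69%. Without Ccl5, which myeloid cells also make, the summed level of the list was 871.6 and 1066.3 FPKM in wild-type and 961.6 and 3708.3 in Irf3/7-/- BMDCs. It was 42.9 and 66.1 FPKM in Irf1-/-, and 51.2 and 41.3 in Tmem173-/- BMDCs. The higher sum of treated wild-type BMDCs did not hold for most of these genes. With treatment in wild-type BMDCs, 6 of 17 tested were called lower and 2 higher, beside 9.96% and 10.5% of all tested genes. The 2 were Ccl5 and Ifng, and the median log2 difference was -0.09. Ifng, which is in the sum, stood at 34.6 FPKM untreated and 299.1 treated there. In Irf1-/- BMDCs, Ccl5 and Ifng were again the 2 of 11 tested called higher with treatment, and 2 were called lower, beside 9.67% and 7.81%. In Irf3/7-/- BMDCs 10 of 18 tested were called higher with treatment and 2 lower, beside 10.2% and 7.68%. The median log2 difference of the list was 1.01 there. Gzma, granzyme A of cytotoxic lymphocytes, was 349.4 and 328.8 FPKM in wild-type, 314.8 and 899.8 in Irf3/7-/- and 5.55 and 8.39 in Irf1-/- BMDCs, and listed at 0 in both Tmem173-/- conditions. Ncr1, which defines NK cells, stayed at 0.661 FPKM or lower in all conditions and was listed at 0 in 3 of them, and Klrc1 and Klra8 were listed at 0 in all 4 Tmem173-/- and Irf1-/- conditions.

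Of 10 T cell identity genes, 8 were tested in untreated Tmem173-/- BMDCs. Called lower were 4, Lef1, Gata3, Thy1 and Satb1, and 0 higher, beside 5.95% and 5.04% of all tested genes. In untreated Irf1-/- BMDCs 3 of 8 were called lower, beside 3.52%, and Tcf7 was called higher, beside 1.26%. The summed level of the list, 122.2 to 828.7 FPKM over the 8 conditions, was led by Ly6c2, Thy1 and Il7r, none of them confined to T cells. Bcl11b, a transcription factor that T cells require, was 0.512 FPKM in untreated wild-type, 0.0132 in untreated Tmem173-/-, 0.108 in untreated Irf1-/- and 1.27 in treated Irf3/7-/- BMDCs. How far the number of lymphocytes in the harvest moved with these levels was not tested.

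Other lists did not follow the same order. Of 9 neutrophil genes, all tested, 8 were called higher in untreated and in treated Tmem173-/- BMDCs, beside 5.04% and 12.9% of all tested genes. The summed levels were 20088.3 and 14653.6 FPKM there, against 1419.7 to 4031.5 FPKM in the other 6 conditions. S100a8 and S100a9 led the sums, at 10350.9 and 8336.3 FPKM in untreated Tmem173-/- BMDCs. The FPKM of S100a8 lay above the upper end of its own interval in all 8 conditions, so its call is less certain. Of 10 B cell genes, 5 were tested in each Tmem173-/- comparison, where all 9 members were called lower. Called higher in both were 4, among them Ms4a1, Cd79a and Cd22, beside 5.04% of all tested genes untreated and 12.9% treated. The sums of the list were 12.9 and 10.7 FPKM in Tmem173-/- BMDCs against 3.89 to 7.84 FPKM elsewhere. Basophil and mast cell genes, which include users of LAT, were all tested in Irf3/7-/- BMDCs. Called higher were 6 of 10 untreated and 8 of 10 treated, beside 1.17% and 4.61% of all tested genes. Hdc was called lower in treated Irf3/7-/- BMDCs. The sums in Irf3/7-/- BMDCs were 185.2 and 290.5 FPKM against 82.6 and 171.4 in wild-type. Of 9 macrophage genes, all tested, 3 were called higher in untreated and 5 in treated Tmem173-/- BMDCs, beside 5.04% and 12.9% of all tested genes. Mertk was called lower in treated Tmem173-/- BMDCs. In untreated Irf1-/- BMDCs 4 of the 9 were called lower, beside 3.52%. The part of these lists in the levels of the 9 genes was not tested. All 10 dendritic cell markers reached 1 FPKM in all 8 conditions, with summed levels of 5144.6 to 9821.5 FPKM.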

How the data were processed

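RNA-seq libraries of 16 BMDC samples were stranded and paired-end. The authors computed FPKM with Cuffdiff 1.06 and genome build mm9, per the submitters' processing notes; the methods name another Cuffdiff version, and the loci in the table matched GRCm38. The methods name an opposing-strand setting for a separate Seqmonk quantification; for the Cuffdiff table, the strand setting, aligner and annotation are "not given in the sources used here". In the deposited table, each gene and condition has 1 FPKM and 1 confidence interval, pooled over 2 samples. The columns of the Tmem173-/- conditions were read by their header suffix, and 3 value columns of a condition with no matching sample were not used. Dose is as labelled; the study's legends give another.

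The members and gene lists were chosen with earlier results of these data known. Log2 differences of FPKM + 0.1 and calls were computed with Python 3.11.15, numpy 2.4.6, pandas 2.3.3 and matplotlib 3.10.9, and the calling script was tested on simulated data. Calls were made for 10 comparisons and recomputed under 6 alternatives. The genes named were the members, the targeted genes, at most 4 called genes of a list per comparison by size, markers listed at 0 and the 10 genes most like the members; others named (Ctla4 and Icos in wild-type BMDCs, Csk and the other stable pathway genes, Cd79a, Bcl11b and Pou2f1) were picked after their values were seen. Some genes of the lists are not reported here. The methods give a target depth per sample, and the depth reached is unknown. Among 1395 genes at low FPKM, at most 3.08% shared a ratio between conditions, so no step of 1 read was visible in the FPKM values. Some interval bounds did lie on a common step, such as 0.0299, 0.0598 and 0.299 FPKM for Cd3d in Tmem173-/- BMDCs. What that step stands for was not examined. For genes of 10 FPKM or more, the median of the authors' interval was ± 25.2 to 25.7% of the value.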

Additional observations from a re-analysis of the deposited data

How the results depend on the processing

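No paired analysis was possible because the deposited values are pooled over replicates, and leaving out a replicate could not be run for the same reason. Calls were repeated with a pseudocount of 1 FPKM, no minimum, a minimum of 5 FPKM, a fold above 4, the fold alone, and median centring. Of the 60 counts of members called, 52 stayed within 1.5 times the main count, and of the members' log2 differences 520 moved little, 20 moved further and 0 reversed. Only the pseudocount and the centring enter a log2 difference. Under the other settings it could not move, so most of the 520 were fixed in advance. Counts for the gene lists were less stable: 489 stayed within 1.5 times and 111 did not. For c-di-GMP in wild-type BMDCs, the count of 2 became 0 with a pseudocount of 1 FPKM, 0 with a fold above 4, 1 (Zap70) with a minimum of 5 FPKM and 1 (Skap1) with median centring. In Irf1-/- BMDCs after c-di-GMP the fold alone gave 2 (Cd247 and Lck) in place of 1. A minimum of 5 FPKM gave 5 in place of 9 for treated Tmem173-/- against treated wild-type and 3 in place of 6 for treated Irf1-/-, since fewer genes reach it. A fold above 4 gave 3 (Cd3e, Zap70 and Cd28) in place of 9 for treated Irf3/7-/-. Levels under 1 FPKM limit every fold against Tmem173-/- BMDCs, and the pseudocount shrinks those folds.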
